A study of Mus musculus with 6 samples.

Results

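The enzymes that chemically modify tRNA and rRNA, together with the relatives that carry their family names, were followed in mouse peritoneal macrophages exposed to LPS with or without the MEK inhibitor trametinib. The genes were taken by name, as protein-coding genes of the Trmt, Mettl, Nsun, Pus, Dus, Elp, Alkbh, Adat, Ftsj, Tyw, Qtrt and Thumpd families with at least 60 counts over the 6 libraries. Of 25044 genes in the table, 85 carried such a name and 74 of them reached the count. All 74 passed the filter on low counts and were tested. Both groups came from wild-type C57BL/6 mice of 8 weeks. Their macrophages were elicited with thioglycollate, an irritant broth given 3 days earlier, and cells that had attached within 1 h were kept for 24 h. The trametinib group (3 libraries) then had 100 nM of the drug for 2 h before 12 h with 100 ng/ml LPS, the bacterial cell wall component that TLR4 senses. The vehicle group (3 libraries) had DMSO in place of the drug and the same LPS. Every library therefore came from LPS-treated cells, and the comparison shows what the inhibitor changed in the presence of LPS, not what LPS did. The study used 3 mice, and the labels do not tie a library to a mouse, so p-values here reflect only how far these libraries spread, which may be partly technical. Vehicle replicate 3 stood apart from its group across all genes: without it 4663 genes passed the threshold used here, against 3869 with all libraries, and results that rest on it are given both ways.

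Newly made tRNA and rRNA are decorated with many chemical groups, which help the molecules fold, stay intact and read codons accurately. Methyltransferases add methyl groups to bases or riboses, pseudouridine synthases rotate a uridine in place, dihydrouridine synthases reduce one, and Elongator builds the side chain on the wobble uridine of the anticodon. ERK, the kinase downstream of MEK, is known to promote ribosome and tRNA synthesis in growing cells, in part through MYC. Several families named here also hold enzymes with other substrates, such as Mettl3, which methylates mRNA, and Mettl13, which methylates a translation factor. The label therefore covers 53 members in 8 role groups, called below members that act on tRNA or rRNA. They include partner proteins, and members such as Thumpd2 and Mettl17 whose place there is less certain. The other 21 members, in 3 groups, have known substrates that are mostly mRNA, snRNA, DNA, protein or small molecules.

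Most members that changed with trametinib fell. Of 74 members, 28 fell (37.8%) and 3 rose (4.05%), and 43 did not pass an adjusted p of 0.05. Over all 11286 genes tested 34.3% passed, 18.4% lower and 15.8% higher, so the share that fell was above that background and the share that rose below it. The median log2 fold change of the members was −0.26, against −0.005 over all genes tested, and 62 of 74 members had a negative value. Most changes were modest: 20 of the 28 fell by at least 0.5 on the log2 scale and 3 by at least 1. Among the 53 members that act on tRNA or rRNA 24 fell (45.3%) and none rose in edgeR's test. The split into these 53 and the other 21 was made with earlier results of these data known, so it is no independent support. Its border is not sharp, as Alkbh1, which also demethylates tRNA, is among the 21. By DESeq2 none of the 53 rose either, and 17 fell, where 16.2% lower and 15% higher was the share over all genes. Pus10 and Trmt2b, both among the 53, passed as higher under alternatives given with their values. At an unadjusted p under 0.05, 38 of all members were lower and 5 higher. The share over all genes at that unadjusted threshold was not computed, so these counts have no background beside them. Of the other 21 members 4 fell (19%) and 3 rose (14.3%), near the shares over all genes tested. Every trametinib library lay below every vehicle library in 45 of 74 members (60.8%; 25.9% of all genes) and above in 5 (6.76%; 23.4% of all genes). In bulk RNA of this kind, less RNA per cell and fewer cells of a type cannot be told apart.

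**Figure D1:**
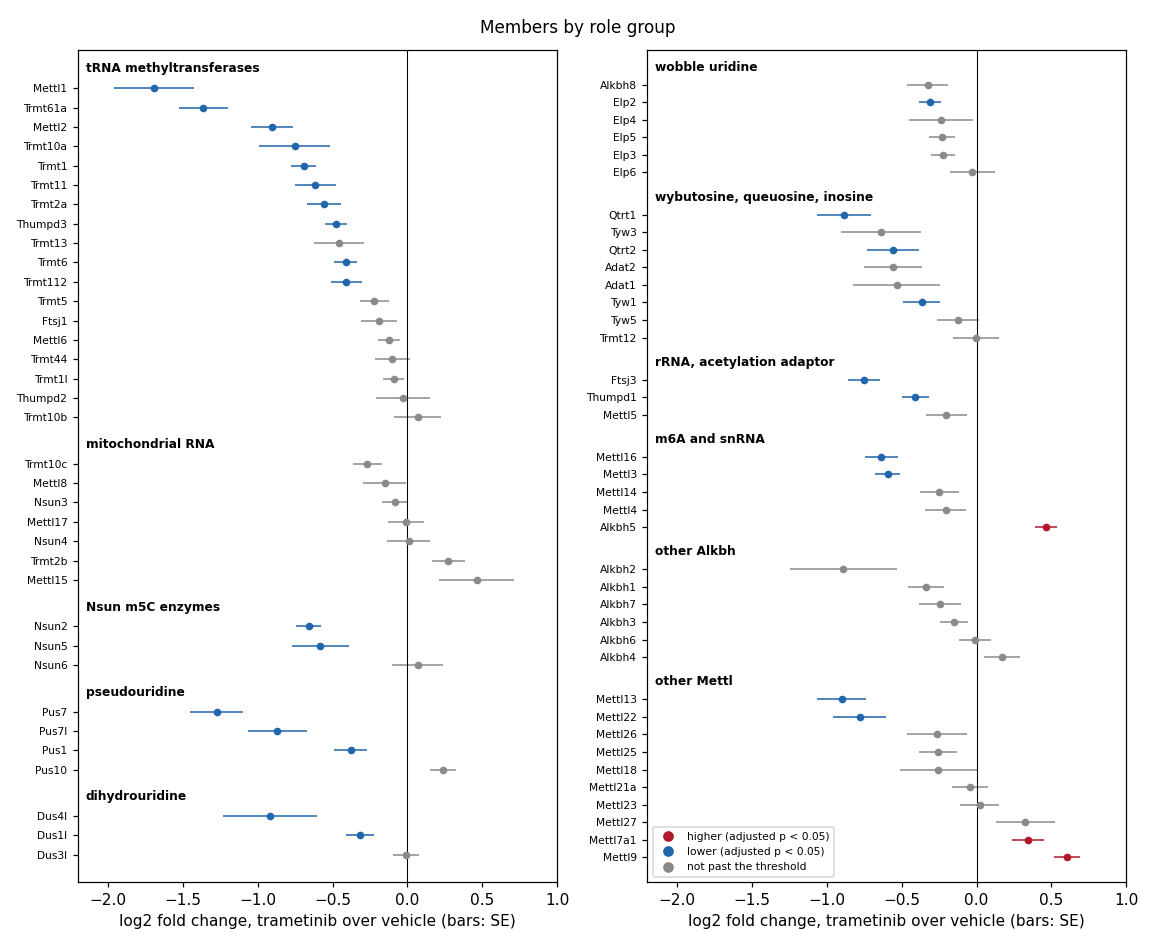
Log2 fold change of 73 of the 74 members (x axis, trametinib over vehicle) with its SE as a bar, in 11 role groups, from edgeR. Points past an adjusted p of 0.05 are blue (lower, 27) or red (higher, 3), and the others are grey. The 7 mitochondrial RNA methyltransferases are all grey and 10 of 18 tRNA methyltransferases and partners are blue. Over all genes tested 18.4% were lower and 15.8% higher.

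The 3 members with the sharpest falls were Mettl1, Trmt61a and Pus7, and the promoters of these 3 are shown because, as seen after their values were known, each holds the same 6-letter word close after its start. RefSeq windows (build GRCm38.p6, the sequence of mm10) run from 250 bases before to 50 bases after an annotated start. They were searched on both strands for CACGTG, the E-box bound by MYC-MAX and other helix-loop-helix factors, CCGGAAG, the core of many ETS sites, TGACTCA, an AP-1 site, and TGACGTCA, a CRE. The windows of Alkbh5 and Mettl9, the members with the largest rises, are also shown. Capitals mark matches, and every window is written 5′ to 3′ on the gene's own strand.
Mettl1 (chr10:127041682-127041981, plus strand): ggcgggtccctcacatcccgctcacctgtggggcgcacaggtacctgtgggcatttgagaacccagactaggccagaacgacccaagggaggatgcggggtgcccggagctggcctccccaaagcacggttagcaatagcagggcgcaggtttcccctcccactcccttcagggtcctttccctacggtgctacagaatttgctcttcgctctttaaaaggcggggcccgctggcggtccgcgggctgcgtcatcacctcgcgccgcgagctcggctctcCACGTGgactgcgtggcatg
Trmt61a (chr12:111677855-111678154, plus strand): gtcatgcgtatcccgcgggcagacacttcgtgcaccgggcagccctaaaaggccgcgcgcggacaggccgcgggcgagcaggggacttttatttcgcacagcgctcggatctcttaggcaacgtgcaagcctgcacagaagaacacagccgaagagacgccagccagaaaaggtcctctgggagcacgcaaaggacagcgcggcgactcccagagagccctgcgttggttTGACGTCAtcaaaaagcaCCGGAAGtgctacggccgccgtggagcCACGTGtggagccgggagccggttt
Pus7 (chr5:23783662-23783961, minus strand): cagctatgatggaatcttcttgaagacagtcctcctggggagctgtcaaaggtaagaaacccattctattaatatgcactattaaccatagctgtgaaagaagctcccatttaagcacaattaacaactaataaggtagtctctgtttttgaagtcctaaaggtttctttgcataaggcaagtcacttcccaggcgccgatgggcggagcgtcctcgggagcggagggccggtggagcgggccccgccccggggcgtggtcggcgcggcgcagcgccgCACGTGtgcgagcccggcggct
Alkbh5 (chr11:60537433-60537732, plus strand): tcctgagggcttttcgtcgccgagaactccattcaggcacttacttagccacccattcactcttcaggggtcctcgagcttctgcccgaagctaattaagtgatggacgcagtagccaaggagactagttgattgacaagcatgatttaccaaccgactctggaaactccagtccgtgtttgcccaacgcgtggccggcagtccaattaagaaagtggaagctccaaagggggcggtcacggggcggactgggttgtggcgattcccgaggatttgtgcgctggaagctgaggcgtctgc
Mettl9 (chr7:121034195-121034494, plus strand): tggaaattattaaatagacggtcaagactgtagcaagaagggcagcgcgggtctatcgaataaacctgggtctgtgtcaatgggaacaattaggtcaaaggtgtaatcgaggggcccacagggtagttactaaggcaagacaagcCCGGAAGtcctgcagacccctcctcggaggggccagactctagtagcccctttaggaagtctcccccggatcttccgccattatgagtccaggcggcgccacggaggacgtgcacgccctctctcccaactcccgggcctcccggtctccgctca

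CACGTG began 30, 25 and 28 bases downstream of the annotated start base in Mettl1, Trmt61a and Pus7. These positions depend on the RefSeq start. The Mettl1 window begins at 127041682, downstream of the GENCODE start of the gene at 127041414. The Alkbh5 window begins at 60537433, likewise downstream of a GENCODE start at 60536381. Trmt61a also held TGACGTCA 20 bases and CCGGAAG 2 bases before its start, and no 2 of these matches overlapped. A second annotated window of Pus7 had no match. Alkbh5 had none of the 4 words, and Mettl9 had CCGGAAG 105 bases before its start. Most tested genes lack CACGTG, so its absence from both of these windows says little. A window was listed for 62 of 74 members, and 8 of these 62 (12.9%) held CACGTG, against 12.1% of 8824 tested protein-coding genes and 7.2% of all 32851 windows. The 8 were Alkbh7, Mettl1, Pus1, Pus7, Qtrt1, Thumpd2, Trmt10a and Trmt61a. The shares of members and of tested genes count a gene if any of its windows matched, whereas the 7.2% is per window. CCGGAAG was in 24 of 62 members (38.7%, against 21.6% of the tested protein-coding genes). TGACTCA was in 2 members (3.2%, against 4.6% of the tested protein-coding genes) and TGACGTCA in 5 (8.1%, against 3.7%). The words were chosen with the fold changes known. A match is a string of letters and does not show that a factor binds there, and the comparison of these shares was not tested.

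tRNA methyltransferases and their partners formed the largest role group, and 10 of its 18 members fell (55.6%) while none rose. Over all genes tested 18.4% were lower and 15.8% higher. Mettl1, the catalytic subunit of the enzyme that makes 7-methylguanosine in tRNA (mm10 chromosome 10, 127041414 to 127046365), had 1.54, 1.51 and 2.95 CPM in the trametinib libraries, against 7.46, 6.75 and 5.24 CPM in the vehicle libraries, where CPM are normalised read counts scaled by library size. All 3 trametinib libraries were below all vehicle libraries, and trametinib replicate 3 was the highest of its group. The level with trametinib was 30.9% of that with vehicle (log2 fold change −1.69, SE 0.27, adjusted p 0.00202). Wdr4, its partner subunit, which has no family name of this kind, had 6.68, 6.56 and 6.91 CPM in the trametinib libraries, against 9.70, 8.37 and 9.67 CPM in the vehicle libraries (log2 fold change −0.46, SE 0.11, adjusted p 0.0129). Its groups did not overlap either, and its fitted fall was smaller than that of Mettl1, a difference that was not tested.

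Trmt61a is the catalytic and Trmt6 the non-catalytic subunit of the nuclear enzyme that makes 1-methyladenosine in tRNA. Trmt61a had 3.13, 3.6 and 3.34 CPM in the trametinib libraries, against 8.97, 10.0 and 6.97 CPM in the vehicle libraries, and the level with trametinib was 38.9% of that with vehicle (log2 fold change −1.36, SE 0.17, adjusted p 0.000639). Trmt6 had 19.6, 21.8 and 20.4 CPM in the trametinib libraries, against 27.2, 28.5 and 26.6 CPM in the vehicle libraries (log2 fold change −0.41, SE 0.08, adjusted p 0.00435). The groups did not overlap for either subunit. Mettl2, which methylates cytidine in the anticodon loop, had 4.97, 5.91 and 6.68 CPM in the trametinib libraries, against 10.7, 12.2 and 10.00 CPM in the vehicle libraries (log2 fold change −0.90, SE 0.14, adjusted p 0.00179), again with no overlap. Trmt1 makes dimethylguanosine at the junction of the D and anticodon arms. It had 15.3, 15.3 and 16.2 CPM in the trametinib libraries, against 25.5, 26.7 and 23.3 CPM in the vehicle libraries (log2 fold change −0.69, SE 0.08, adjusted p 0.000639), and its 3 trametinib libraries were close together.

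Trmt112 is the small activating partner that several methyltransferases need, among them Trmt11 and Thumpd3 for guanosine in tRNA and Mettl5 for 18S rRNA. It had 25.4, 23.9 and 25.6 CPM in the trametinib libraries, against 35.8, 35.5 and 28.0 CPM in the vehicle libraries, with vehicle replicate 3 nearest to the trametinib libraries (log2 fold change −0.41, SE 0.10, adjusted p 0.0171). This call did not hold without trametinib replicate 1 or 2 or vehicle replicate 1 or 2 (adjusted p 0.057, 0.0631, 0.0664 and 0.0639, in a range of 0.000516 to 0.0664 over 13 alternatives). Of its exon length 33.2% is shared with Prdx5 on the opposite strand, whose total over the libraries was 142275 counts, so its level is less certain. Trmt11 and Thumpd3 fell with it (log2 fold changes −0.61 at an adjusted p of 0.00869, and −0.48 at an adjusted p of 0.00173), whereas Mettl5 had a log2 fold change of −0.20 at an adjusted p of 0.277. Trmt2a, which makes 5-methyluridine, fell (−0.56 at an adjusted p of 0.00589), as did Trmt10a, a guanosine methyltransferase (−0.75 at an adjusted p of 0.0375). Of the exon length of Trmt2a 15.5% is shared with Dgcr8 on the opposite strand. Trmt10a lost its call by DESeq2 and without trametinib replicate 1 or 2 or vehicle replicate 1 or 2 (adjusted p 0.0779, 0.107, 0.124, 0.138 and 0.0887, in a range of 0.0167 to 0.138). The 8 members of the role group that did not pass had log2 fold changes from −0.46 for Trmt13 to 0.07 for Trmt10b, the others being Trmt5, Ftsj1, Mettl6, Trmt44, Trmt1l and Thumpd2.

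**Figure D2:**
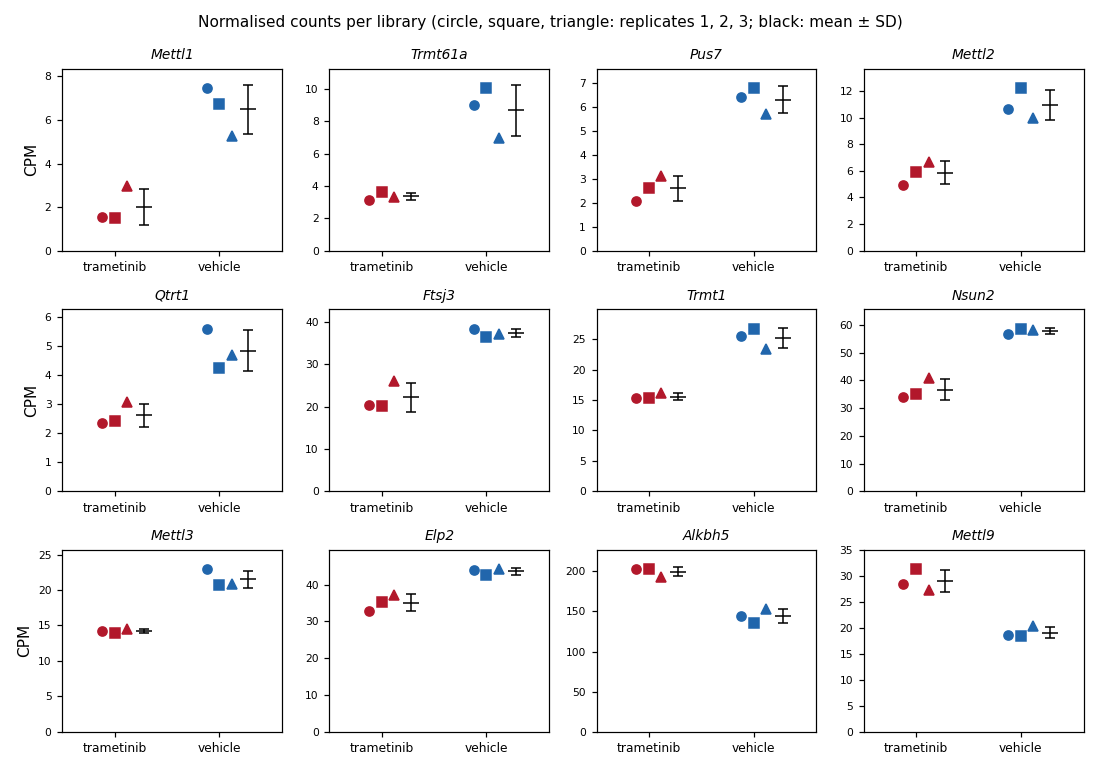
CPM (y axis, from 0) in each library for 12 members, with the trametinib group left of the vehicle group. Symbols give replicates 1 to 3, and the black mark is the mean ± SD of 3 libraries. The groups do not overlap in any of the 12 panels, with Alkbh5 and Mettl9 higher and the other 10 lower with trametinib.

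Of 4 pseudouridine synthases 3 fell (75%, against 18.4% of all genes tested) and 1 did not pass. Pus7, which modifies tRNA, snRNA and mRNA at a short sequence motif, had 2.07, 2.63 and 3.12 CPM in the trametinib libraries, against 6.45, 6.81 and 5.73 CPM in the vehicle libraries, at 41.4% of the vehicle level with trametinib (log2 fold change −1.27, SE 0.17, adjusted p 0.00105). Pus7l, its relative, had 1.66, 1.51 and 1.95 CPM in the trametinib libraries, against 3.31, 3.35 and 2.70 CPM in the vehicle libraries (log2 fold change −0.87, SE 0.20, adjusted p 0.00947). Both had no overlap between groups. Pus1, which works in the nucleus and in mitochondria, also fell (log2 fold change −0.38, SE 0.11, adjusted p 0.0278), but not by DESeq2 or without trametinib replicate 1 or 2 or vehicle replicate 1 or 2 (adjusted p 0.0801, 0.084, 0.0899, 0.111 and 0.0724, in a range of 0.0148 to 0.111). Of the exon length of Pus1 23.8% is shared with Gm26515 on the opposite strand. Pus10, which modifies the T arm of tRNA and takes part in microRNA processing, had a positive fold change and did not pass. It had 28.8, 31.2 and 29.5 CPM in the trametinib libraries, against 24.5, 23.8 and 27.6 CPM in the vehicle libraries (log2 fold change 0.24, SE 0.09, adjusted p 0.0572), and the groups did not overlap. The adjusted p of Pus10 was 0.0463 with the replicate number as a block, 0.048 with DESeq2's size factors, 0.0494 with a filter of 1 CPM in 3 libraries and 0.0133 without vehicle replicate 3, in a range of 0.0133 to 0.188.

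Of 3 dihydrouridine synthases 2 fell (66.7%, against 18.4% of all genes tested). Dus1l had 21.2, 18.7 and 20.2 CPM in the trametinib libraries, against 24.9, 27.4 and 22.5 CPM in the vehicle libraries (log2 fold change −0.32, SE 0.10, adjusted p 0.0332). The groups were separate, and the call ended by DESeq2 and when any 1 library other than vehicle replicate 3 was left out (adjusted p 0.064, 0.0628, 0.121, 0.0629, 0.0848 and 0.126, in a range of 0.00682 to 0.126). Dus4l, with 152 counts in all, had 0.651, 0.860 and 1.39 CPM in the trametinib libraries, against 1.51, 1.84 and 2.16 CPM in the vehicle libraries (log2 fold change −0.92, SE 0.31, adjusted p 0.0479). Its highest trametinib and lowest vehicle values lay close together, and it passed in 6 of 13 alternatives. The call of Dus4l ended with a filter of 1 CPM in 3 libraries and by DESeq2 (adjusted p 0.0507 and 0.0838), and without trametinib replicates 1 and 2 and each of the vehicle replicates (0.162, 0.144, 0.0664, 0.105 and 0.0936), in a range of 0.0194 to 0.162. Dus3l had −0.01 on the same scale (SE 0.09, adjusted p 0.951), a value whose sign turned under other settings.

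Among Nsun enzymes outside mitochondria, which make 5-methylcytosine, 2 of 3 fell (66.7%, against 18.4% of all genes tested). Nsun2, the main cytosine methyltransferase of tRNA, had 33.9, 35.2 and 40.9 CPM in the trametinib libraries, against 56.7, 58.7 and 58.4 CPM in the vehicle libraries (log2 fold change −0.66, SE 0.08, adjusted p 0.000769). The vehicle libraries lay close together and all above the trametinib libraries. Nsun5, which methylates 28S rRNA, had 3.37, 3.82 and 4.12 CPM in the trametinib libraries, against 7.12, 4.69 and 5.13 CPM in the vehicle libraries (log2 fold change −0.58, SE 0.19, adjusted p 0.0411), and its fall leaned on the high value of vehicle replicate 1. Without that library the adjusted p was 0.16, and it was 0.139, 0.102 and 0.0574 without trametinib replicates 1, 2 and 3, 0.0628 by DESeq2 and 0.056 by limma-voom, in a range of 0.0237 to 0.16. Nsun6, a tRNA enzyme too, had a log2 fold change of 0.07 at an adjusted p of 0.783. Nsun5 shares 15.4% of its exon length with Pom121 on the opposite strand.

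The members described here of Elongator and its downstream enzyme all had negative fold changes. Elp2, a subunit that forms a subcomplex with the catalytic Elp3, had 32.9, 35.2 and 37.3 CPM in the trametinib libraries, against 44.1, 42.6 and 44.2 CPM in the vehicle libraries (log2 fold change −0.31, SE 0.07, adjusted p 0.0116). The groups of Elp2 did not overlap. The adjusted p of Elp2 was 0.0585 without trametinib replicate 1 and 0.05, just over the threshold, without vehicle replicate 1, in a range of 0.00902 to 0.0585. Elp3, the catalytic subunit, had 18.5, 18.7 and 19.7 CPM in the trametinib libraries, against 23.6, 21.2 and 21.6 CPM in the vehicle libraries without reaching the threshold (log2 fold change −0.22, SE 0.08, adjusted p 0.0614), although its groups were separate. The accessory subunits Elp4, Elp5 and Elp6 had log2 fold changes of −0.24, −0.23 and −0.03. Alkbh8, which completes the wobble side chain after Elongator, had −0.33. With the replicate block Elp5 and Alkbh8 passed as lower (adjusted p 0.0186 and 0.0495), and Elp5 also without vehicle replicate 3 (0.0275), in ranges of 0.0186 to 0.211 for Elp5 and 0.0495 to 0.253 for Alkbh8.

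Enzymes of the hypermodified bases queuosine and wybutosine and of inosine had 3 of 8 members lower, and all 8 fold changes were negative. The share lower was 37.5%, against 18.4% of all genes tested. Qtrt1 and Qtrt2 form the dimer that exchanges guanine for queuine in the anticodon. Qtrt1, the catalytic subunit, had 2.37, 2.42 and 3.06 CPM in the trametinib libraries, against 5.61, 4.24 and 4.70 CPM in the vehicle libraries (log2 fold change −0.89, SE 0.18, adjusted p 0.00595). Qtrt2 had 2.25, 3.12 and 3.12 CPM in the trametinib libraries, against 4.32, 4.07 and 4.16 CPM in the vehicle libraries (log2 fold change −0.56, SE 0.17, adjusted p 0.0355). Both were lower in each trametinib library than in any vehicle library. The call of Qtrt2 ended by DESeq2 and without trametinib replicates 1 and 2 and vehicle replicates 1 and 2 (adjusted p 0.0879, 0.119, 0.0584, 0.107 and 0.0806, in a range of 0.0338 to 0.119). Tyw1, an early enzyme of wybutosine synthesis, fell by 0.37 in log2 units (adjusted p 0.046). Tyw1 was past the threshold in 6 of 13 alternatives, and missed it with a filter of 1 CPM in 3 libraries, by DESeq2 and by limma-voom (adjusted p 0.052, 0.0684 and 0.0512) and without trametinib replicates 1 and 2 and vehicle replicates 1 and 2 (0.158, 0.0852, 0.0576 and 0.163). Over the alternatives its adjusted p was 0.0158 to 0.163. The others of that pathway, Trmt12, Tyw3 and Tyw5, had −0.003, −0.64 and −0.12, and none passed. The deaminase gene Adat2 had −0.56 (adjusted p 0.0521), which became 0.0364 with the replicate block and 0.0113 without vehicle replicate 3, in a range of 0.0113 to 0.17. Adat1, which edits another tRNA position, had −0.54 at an adjusted p of 0.184.

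The role group of cytosolic rRNA methyltransferases and the acetylation adaptor held 3 members, Nsun5 and the mitochondrial enzymes being counted in their own groups. Ftsj3 and Thumpd1 fell (66.7% of the 3 members, against 18.4% of all genes tested) and Mettl5 did not pass. Ftsj3, a ribose methyltransferase of pre-rRNA, had 20.5, 20.1 and 26.1 CPM in the trametinib libraries, against 38.5, 36.6 and 37.1 CPM in the vehicle libraries (log2 fold change −0.75, SE 0.11, adjusted p 0.00121). Thumpd1, the adaptor that brings the acetyltransferase Nat10 to tRNA, had 19.2, 18.2 and 21.6 CPM in the trametinib libraries, against 24.7, 27.6 and 26.0 CPM in the vehicle libraries (log2 fold change −0.41, SE 0.09, adjusted p 0.0088). Nat10 itself, taken from the list of other tRNA enzymes, had 7.39, 6.88 and 9.80 CPM in the trametinib libraries, against 18.5, 15.3 and 15.1 CPM in the vehicle libraries (log2 fold change −1.02, SE 0.15, adjusted p 0.00139). All 3 of these genes had separate groups.

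None of the 7 members that are mitochondrial RNA methyltransferases passed: 0 fell and 0 rose in edgeR's test. Over all genes tested 18.4% were lower and 15.8% higher, and with 7 members counts of 0 say little beside such shares. Apart from Trmt10c and Trmt2b, none of the 7 was at an unadjusted p under 0.05. DESeq2 called 0 of them as well. Trmt10c, a subunit of the mitochondrial RNase P that also methylates tRNA, had 12.5, 11.9 and 14.2 CPM in the trametinib libraries, against 15.3, 15.5 and 15.6 CPM in the vehicle libraries (log2 fold change −0.27, SE 0.10, adjusted p 0.06). Its groups were separate by a narrow margin, and the adjusted p was 0.049 with the replicate block and 0.0275 without trametinib replicate 3, in a range of 0.0275 to 0.194. Trmt2b, which makes 5-methyluridine in mitochondria, had 13.3, 13.9 and 12.0 CPM in the trametinib libraries, against 9.82, 10.6 and 11.9 CPM in the vehicle libraries (log2 fold change 0.27, SE 0.11, adjusted p 0.0865), higher in every trametinib library, though trametinib replicate 3 and vehicle replicate 3 were nearly level. Its adjusted p was 0.0349 without vehicle replicate 3, in a range of 0.0349 to 0.256. Nsun3, Nsun4, Mettl8, Mettl15 and Mettl17 had log2 fold changes of −0.08, 0.01, −0.15, 0.46 and −0.01. Mettl15, the highest of these, had an SE of 0.25 with 224 counts in all. The difference between the mitochondrial and the other role groups was not tested. Mitochondrial rRNA methyltransferases with other names, taken from the list of other rRNA enzymes after their values were seen, were mixed. Mrm1 and Mrm3 fell (log2 fold changes −0.48 at an adjusted p of 0.0274, and −0.87 at an adjusted p of 0.0208). Mrm2 and Tfb1m did not pass (0.08 at an adjusted p of 0.726, and −0.21 at an adjusted p of 0.297).

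**Figure D3:**
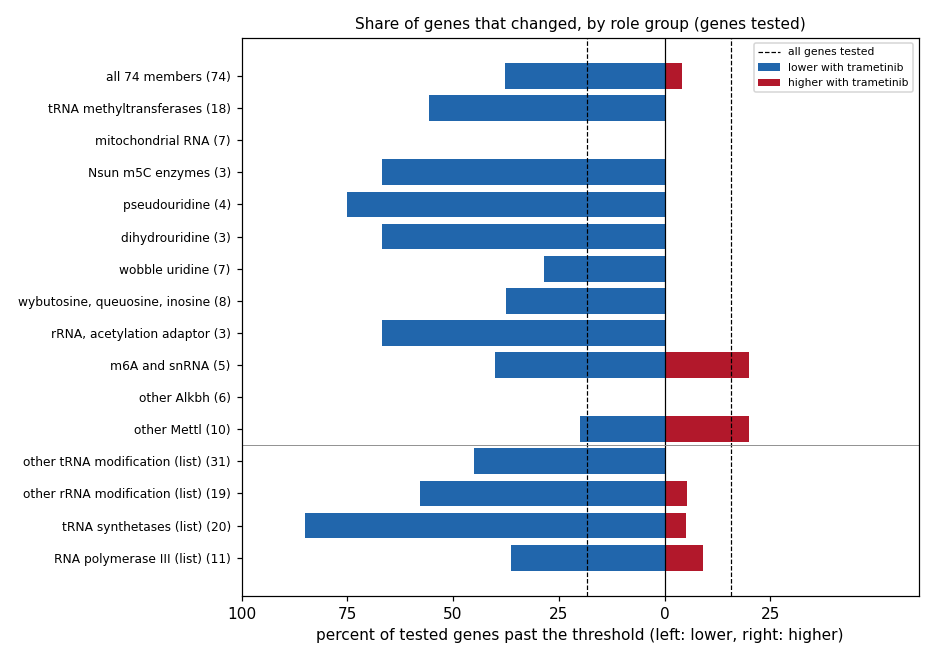
Percent of tested genes past an adjusted p of 0.05 (x axis; left of 0 lower, right of 0 higher with trametinib) in all members, in each of 11 role groups and, under the grey line, in 4 lists of related genes, with the number tested in brackets. Dashed lines mark the shares over all 11286 genes, 18.4% lower and 15.8% higher. The bars of mitochondrial and other Alkbh members are empty, and the longest bar is that of the tRNA synthetases.

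Of 5 members that act on N6-methyladenosine of mRNA, or on snRNA, 2 fell, 1 rose and 2 did not pass. The shares were 40% lower and 20% higher, against 18.4% and 15.8% over all genes tested. Mettl3, the catalytic subunit of the mRNA adenosine methyltransferase, had 14.3, 14.0 and 14.5 CPM in the trametinib libraries, against 22.9, 20.8 and 20.8 CPM in the vehicle libraries (log2 fold change −0.59, SE 0.08, adjusted p 0.00105). All vehicle libraries lay above all trametinib libraries, although 18.4% of its exon length is shared with Tox4 on the opposite strand. Mettl14, its partner, had 11.8, 13.4 and 14.8 CPM in the trametinib libraries, against 13.9, 15.2 and 18.5 CPM in the vehicle libraries, with overlapping groups (log2 fold change −0.25, SE 0.13, adjusted p 0.171). Mettl14 reached 0.0495 as an adjusted p once the replicate number was a block, in a range of 0.0495 to 0.434. Mettl16, which methylates U6 snRNA, fell (log2 fold change −0.64, SE 0.11, adjusted p 0.00318), and Mettl4, an snRNA enzyme, had −0.21 at an adjusted p of 0.27. Alkbh5, the demethylase that removes the mark, rose. It had 202, 203 and 193 CPM in the trametinib libraries, against 144, 136 and 154 CPM in the vehicle libraries, a level with trametinib of 138% of the vehicle level (log2 fold change 0.46, SE 0.07, adjusted p 0.00214). Every trametinib library was above every vehicle library.

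Alkbh5 was also among the most abundant members per length. Per kilobase of exon it stood at 33.3 CPM with trametinib and 24.1 ± 1.47 CPM with vehicle (SD, n = 3 for vehicle). Only Trmt112 was higher in vehicle cells, at 20.3 CPM per kilobase with trametinib and 26.9 ± 3.6 with vehicle, and the vehicle levels of these neighbours did not differ beyond their spread. Elp5 followed at 18.0 CPM per kilobase with trametinib and 21.1 ± 1.35 with vehicle, and Nsun2 at 6.39 with trametinib and 10.1 ± 0.192 with vehicle. The lowest in vehicle cells was Trmt10a, at 0.195 CPM per kilobase with trametinib and 0.329 ± 0.0579 with vehicle. The median member in vehicle cells was at 2.36 CPM per kilobase.

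None of the 6 other Alkbh dioxygenases passed in edgeR's test or by DESeq2, and none was at an unadjusted p under 0.05 apart from Alkbh1 and Alkbh2. With 6 members, counts of 0 say little beside the 18.4% lower and 15.8% higher over all genes tested in edgeR. Alkbh1, which demethylates tRNA among other substrates, had 8.81, 7.52 and 9.69 CPM in the trametinib libraries, against 11.3, 10.4 and 11.1 CPM in the vehicle libraries (log2 fold change −0.34, SE 0.12, adjusted p 0.0552). Its groups were separate, and its adjusted p was 0.0354 once the replicate number was a block and, without trametinib replicate 3, 0.0325, in a range of 0.0325 to 0.169. Alkbh2, a DNA repair enzyme and the member with the fewest counts (81), had 0.473, 0.323 and 0.780 CPM in the trametinib libraries, against 1.07, 0.949 and 0.919 CPM in the vehicle libraries (log2 fold change −0.89, SE 0.36, adjusted p 0.0863), and 29.5% of its exon length is shared with Usp30 on the opposite strand. Its adjusted p was 0.037 without trametinib replicate 3, in a range of 0.037 to 0.251. Alkbh3, Alkbh4, Alkbh6 and Alkbh7 had log2 fold changes of −0.15, 0.17, −0.01 and −0.24.

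The 10 Mettl members with protein or small-molecule substrates, or with functions that are not settled, had 2 lower and 2 higher. These shares (20% each) were near the 18.4% lower and 15.8% higher over all genes tested. Mettl13, which methylates the elongation factor eEF1A, had 3.08, 2.53 and 3.51 CPM in the trametinib libraries, against 5.33, 5.47 and 6.21 CPM in the vehicle libraries (log2 fold change −0.90, SE 0.16, adjusted p 0.00366), and Mettl22, another protein methyltransferase, fell by 0.78 in log2 units (adjusted p 0.00962). Mettl9, a histidine methyltransferase of proteins, had 28.4, 31.3 and 27.4 CPM in the trametinib libraries, against 18.6, 18.4 and 20.3 CPM in the vehicle libraries (log2 fold change 0.61, SE 0.09, adjusted p 0.00123). It was the member with the largest rise, and its groups were well apart. Mettl7a1, a membrane-bound methyltransferase, had 17.2, 17.3 and 14.0 CPM in the trametinib libraries, against 12.0, 13.1 and 13.1 CPM in the vehicle libraries (log2 fold change 0.34, SE 0.11, adjusted p 0.0363). The call of Mettl7a1 ended by DESeq2 and without trametinib replicates 1 and 2 and vehicle replicates 1 and 2 (adjusted p 0.056, 0.129, 0.119, 0.123 and 0.0808, in a range of 0.0122 to 0.129), and reads may be shared with its near copies Mettl7a2 and Mettl7a3. The other 6 (Mettl18, Mettl21a, Mettl23, Mettl25, Mettl26 and Mettl27) had log2 fold changes from −0.27 to 0.33.

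**Figure D4:**
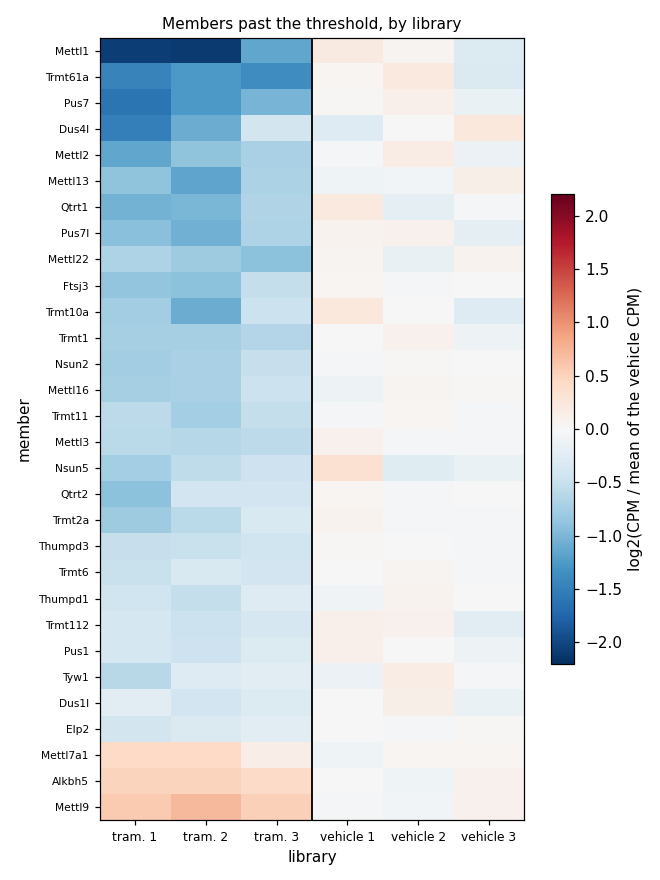
Log2 of the CPM over the mean of the vehicle CPM (colour) for 30 members past the threshold (rows, ordered by fold change) in each of 6 libraries (columns, trametinib left of the black line). Trametinib replicate 3 is paler than replicates 1 and 2 in most rows that fell, and the vehicle columns are near white.

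Within the trametinib group, replicate 3 lay nearest to the vehicle libraries. It had the highest trametinib value in 24 of the 28 members that fell (85.7%), against 59.3% of all 2082 genes that fell. Mettl1 shows this, at 2.95 CPM in replicate 3 beside 1.54 and 1.51 CPM in replicates 1 and 2. Vehicle replicate 3 had the lowest vehicle value in 14 of the 28 members that fell (50%), against 64.6% of all genes that fell. Leaving out a library changed the number of calls among all genes as well as among members, so each count is given with the share over all genes in the same fit. Without vehicle replicate 3, 29 members fell (39.2%) and 5 rose (6.76%, with Pus10 and Trmt2b added), and 21.4% lower and 19.3% higher was the share over all genes. Without trametinib replicate 3, 29 fell (39.2%) and 3 rose (4.05%), against 17.1% lower and 14.6% higher over all genes. Without trametinib replicate 1, 19 fell (25.7%) and 2 rose (2.7%), against 11.9% lower and 9.33% higher over all genes. The counts without vehicle replicate 1 were also 19 and 2, against 12.3% lower and 9.89% higher over all genes. Among the 53 members that act on tRNA or rRNA the count of 24 that fell was 15 without trametinib replicate 1 and 15 without vehicle replicate 1. The share of all genes that were lower went from 18.4% to 11.9% and 12.3% in the same fits.

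Related genes outside the name patterns were described by 4 lists. Over all genes tested 18.4% were lower and 15.8% higher in edgeR's test, 34.3% in either direction. By DESeq2 16.2% of all genes were lower and 15% higher. Of 31 tested tRNA modification enzymes with other names, 14 fell and none rose in edgeR's test (45.2% past the threshold, median log2 fold change −0.33). By DESeq2 10 of them fell and 0 rose, and 1 rose with the replicate block and without vehicle replicate 3. Ctu1, which thiolates the wobble uridine after Elongator has acted, had 7.22, 7.36 and 9.80 CPM in the trametinib libraries, against 25.2, 25.3 and 21.3 CPM in the vehicle libraries (log2 fold change −1.56, SE 0.14, adjusted p 0.00022). Of 19 tested rRNA modification enzymes and proteins of the snoRNA-guided complexes, 11 fell and 1 rose. The core proteins Nop56 and Nop58 of the ribose-methylating complexes had log2 fold changes of −1.02 at an adjusted p of 0.00029, and −1.05 at an adjusted p of 0.00115. Fbl and Snu13 of the same complexes did not pass. Fbl had −0.08 (SE 0.48, adjusted p 0.913) with overlapping groups, and Snu13 had −0.78 (SE 0.34, adjusted p 0.13). The riser was Zcchc4, the adenosine methyltransferase of 28S rRNA, named after its value was seen (log2 fold change 0.40, SE 0.12, adjusted p 0.0313). It did not pass without trametinib replicate 1 or 2 or vehicle replicate 2 or 3, and 7 members of that list fell without trametinib replicate 2 or vehicle replicate 2.

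Of 20 cytosolic aminoacyl-tRNA synthetases, which load tRNAs with amino acids, 17 fell and 1 rose, and 17 fell under each of the 13 alternatives. Rars, the arginine enzyme, had 70.4, 69.8 and 68.2 CPM in the trametinib libraries, against 151, 152 and 128 CPM in the vehicle libraries (log2 fold change −1.05, SE 0.08, adjusted p 0.000141), and Yars, the tyrosine enzyme, had a log2 fold change of −0.94 at an adjusted p of 0.000178. The riser was Wars, the tryptophan enzyme and a known interferon-induced gene, again named after its value was seen (log2 fold change 0.40, SE 0.11, adjusted p 0.0201). Its call ended without trametinib replicate 1 or 2 or vehicle replicate 1 or 2. Of 11 subunits of RNA polymerase III, which transcribes tRNA genes, 4 fell and 1 (Polr3c, named after its value was seen) rose. Polr3d had 5.62, 5.27 and 6.07 CPM in the trametinib libraries, against 13.4, 12.3 and 10.9 CPM in the vehicle libraries (log2 fold change −1.10, SE 0.12, adjusted p 0.00046), and Polr3e had a log2 fold change of −0.77 at an adjusted p of 0.0012. By DESeq2 and without trametinib replicate 1 or 2 or vehicle replicate 1 or 2, 2 subunits fell. Over all genes 16.2% were lower by DESeq2 and 11.9% to 12.8% without those libraries in turn. A count of 2 in 11 was therefore near the share over all genes. No subunit rose without those 4 libraries in turn, and 2 rose without vehicle replicate 3, where 19.3% of all genes were higher.

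Below the count of 60 were 11 genes with a name of these families. Mettl7a3 had 32 counts over the libraries and Nsun7 11, and the lowest members were Alkbh2 with 81 and Mettl18 with 144. Pus3 and Adat3 were listed at 0 in every library, and share 88.1% and 92.0% of their exon length with other genes, so their values say little about expression. The others at or under 5 counts were Mettl11b, Mettl21c, Mettl21e, Mettl24, Mettl7a2, Mettl7b and Trmt9b.

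Libraries held 17453778 to 19648467 counts, a ratio of 1.13 between the deepest and the shallowest. The labelled cell type was checked against 8 macrophage markers, all of which were tested. Their summed level was 14770 to 16400 CPM with trametinib and 15780 to 17560 CPM with vehicle, with Cd14 and Mertk higher and Adgre1 and Itgam lower with trametinib. The summed levels of other cell types were low: 8 neutrophil markers at 4.29 to 9.08 CPM with trametinib and 4.49 to 7.24 CPM with vehicle, 5 B cell markers at 0.223 to 0.710 CPM with trametinib and 0.224 to 0.335 CPM with vehicle, and 6 T and NK cell markers at 0.0537 to 0.296 CPM with trametinib and 0.108 to 0.393 CPM with vehicle. The 8 eosinophil and mast cell markers summed to 4.96 to 8.49 CPM with trametinib and 3.79 to 5.83 CPM with vehicle, and the 9 fibroblast and mesothelium markers to 0.473 to 3.06 CPM with trametinib and 0.757 to 1.40 CPM with vehicle. Retnlg, Ear1, Mcpt4 and Msln had no count in any library. Of these markers of other cell types only 3 of neutrophils and 2 of eosinophils and mast cells had enough counts to be tested, and none of those passed. The part of any such cells in the members' changes was not tested.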

How the data were processed

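The authors deposited 1 table of raw counts, whole numbers of reads per gene from rRNA-depleted RNA. The submitters' processing notes name mm10 with HISAT2 2.1.0 and featureCounts 1.6.4 (also DESeq2 1.24.0, R 3.6.0), and the sources used here do not give annotation, strand setting or multi-mapping rule. Reads of overlapping genes on opposite strands may therefore be mixed: 26 members share exon bases with such a gene, 9 of them over 15% of their length. These 9 are Adat2, Alkbh2, Mettl3, Mettl23, Nsun5, Pus1, Trmt112, Trmt2a and Tyw5.

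Of 25354 entries 310 repeated an identifier with identical values and were dropped. GENCODE M21 (mm10) gave symbols and positions for 25033 of 25044 genes. After filterByExpr and TMM scaling, edgeR 4.0.16 (quasi-likelihood, robust, group as the only term) tested trametinib over vehicle, with Benjamini-Hochberg adjustment across 11286 genes and a threshold of 0.05. SE is derived as |log2 fold change| over the root of F. CPM use TMM-scaled sizes. The procedure was tested on simulated data.

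Same-numbered libraries deviated from their group means together, the pattern that pairing would give. The correlations across genes were 0.339, 0.393 and 0.285, against −0.072 to −0.223 for unlike numbers. Deviations within a group of 3 libraries sum to 0, so part of that contrast is built in. The pairing rests on the counts alone, as no label states it. The main comparison, and every call and background share not said to be blocked, has no block and so does not use the pairing. With the block 4837 genes passed, against 3869 without it, and the blocked value is given where it changed a member's call. The 13 alternatives were DESeq2's size factors, TMM leaving out the 10 most abundant and the mitochondrially encoded genes, no low-count filter, 1 CPM in 3 libraries, DESeq2 1.42.0, limma-voom (limma 3.58.1), the replicate block and each library left out.

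Members, role groups and lists were chosen with earlier results of these data known. Values in each library are given for the 5 highest and 5 lowest fold changes among members past the threshold, the 2 smallest p in each role group, and Mettl1, Mettl3, Mettl14, Nsun2, Pus7, Elp3, Trmt112, Trmt10c and Alkbh5. One member that this rule names is not reported here, which leaves 27. In each list the 2 genes with the smallest p are named. Trmt6, Pus10, Wdr4 and other named genes fall outside this rule. Promoter windows are RefSeq's (GRCm38.p6). Further software was R 4.3.3 and Python 3.11.15 (with NumPy 2.4.6; pandas 2.3.3; matplotlib 3.10.9).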

Additional observations from a re-analysis of the deposited data

How the results depend on the processing

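Of 961 fits of single members under the 13 alternatives, 855 kept their direction and their side of the threshold, 52 lost a call, 16 gained one and 38 changed sign. Of the 31 members past the threshold, 21 passed under every alternative and 23 under every alternative that kept all libraries. The count of members that fell was 21 to 34 with all libraries and 19 to 29 when libraries were left out. The count that rose was 2 to 4 with all libraries and 2 to 5 when libraries were left out, 5 being the value without vehicle replicate 3. With the replicate block 34 members fell and 4 rose: the 28 and 3 called without it, with Adat2, Alkbh1, Alkbh8, Elp5, Mettl14 and Trmt10c added below and Pus10 above, and it changed no other member's call. Over all genes the block gave 22.4% lower and 20.5% higher, against 18.4% lower and 15.8% higher without it. Alkbh2 gave no value under the filter of 1 CPM in 3 libraries.

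Every sign change was in a member that did not pass and lay near 0. When single libraries were left out, the log2 fold change of Mettl21a ran from −0.116 to 0.055, that of Mettl23 ran from −0.064 to 0.109, that of Dus3l ran from −0.047 to 0.048, that of Nsun6 ran from −0.119 to 0.165, that of Mettl17 ran from −0.104 to 0.067, that of Nsun4 ran from −0.067 to 0.158, that of Alkbh6 ran from −0.072 to 0.061, that of Thumpd2 ran from −0.116 to 0.062, that of Trmt10b ran from −0.026 to 0.187, that of Elp6 ran from −0.09 to 0.05 and that of Trmt12 ran from −0.134 to 0.116. Above 0 were also 0.0022 for Dus3l, 0.0018 for Alkbh6 and 0.009 for Trmt12 with DESeq2's size factors, 0.0016 for Dus3l, 0.00058 for Alkbh6 and 0.008 for Trmt12 with the filter of 1 CPM in 3 libraries, 0.0023 for Dus3l, 0.0016 for Alkbh6 and 0.008 for Trmt12 by DESeq2, 0.007 for Trmt12 by limma-voom, 0.0041 for Trmt12 with the replicate block. The 5 members with the fewest counts, Alkbh2, Mettl18, Dus4l, Tyw3 and Adat1, had SE of 0.26 to 0.36 on the log2 scale, and Mettl1, with 458 counts, had 0.27. The cause of the lost calls was not tested.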
